A study of Mus musculus with 8 samples.

Results

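Oligodendrocyte precursor cells are the proliferative glia of the adult brain that give rise to myelinating oligodendrocytes. They divide in response to platelet-derived growth factor through the receptor Pdgfra, carry the NG2 proteoglycan encoded by Cspg4, and receive synaptic input from neurons through glutamate and GABA receptors. As they leave the cycle they pass through a stage marked by Gpr17, Enpp6 and Bmp4 before they express the myelin genes. In the hippocampus they lie among the neurons, astrocytes and vessels throughout adult life.

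The precursor cells described here were chosen by a marker rule from hippocampal single-cell libraries. A barcode was a member when it had at least 500 detected genes, under 15% mitochondrial UMIs (unique molecular identifiers, 1 for each captured RNA molecule), a UMI of at least 3 of the 6 genes Pdgfra, Cspg4, C1ql1, Lhfpl3, Vcan and Cacng4, and at most 1 UMI in total of Mog, Aqp4, Cldn5, Enpp6 and Bmp4. The rule found 1647 members among 12954 cells that met the gene and mitochondrial limits. Of these, 716 came from the Foxp3-DTR- library and 931 from the Foxp3-DTR+ library.

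The hippocampal arm of the study asked what changes around neurons when regulatory T cells are lost. Foxp3-DTR+ mice carry the diphtheria toxin receptor in cells that express Foxp3, so that diphtheria toxin kills their regulatory T cells, and their Foxp3-DTR- littermates lack the receptor. Both groups received diphtheria toxin. Each group was 1 library made from the pooled hippocampal cells of 2 mice, perfused with PBS, dissociated and sorted as live cells negative for CD45 (a leukocyte protein) and Thy1 (a neuronal surface protein). The labels give the sorted cells as neurons and glia, name a single-cell 3' kit, and give no age, sex, dose or interval after the toxin. With 1 library a group there is no replicate check. Every interval below is a 95% exact interval that covers counting error only and leaves out the difference between animals, dissociations and sorts. Intervals of gene ratios take each UMI as a separate draw, so they also leave out the difference between cells and are too narrow where few cells hold most UMIs.

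The libraries held 53484704 and 35814655 UMIs in 8220 and 6548 barcodes (Foxp3-DTR- first, here and throughout). Members had a median of 5119 and 4293 UMIs, 2590 and 2337 genes, and 1.64% and 1.60% mitochondrial UMIs, and held 3711172 and 4086386 UMIs in all. The libraries shared 18 barcodes, none of them members in both. Foxp3 had 0 UMIs in either library, where 3 UMIs would have been 0.0561 and 0.0838 CPM (UMIs of a gene per 1000000 UMIs of the cells summed), so the depletion cannot be checked in these cells. Scrublet, a doublet caller, marked 3.39% and 2.70% of the cells, among them 8 and 12 members, which were kept.

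The lineage of the members was checked on a gene the rule did not use. Olig1, a transcription factor of the oligodendrocyte lineage, was detected in 96.6% and 97.5% of members, at 2758 and 2631 CPM of their summed UMIs. It was also detected in 97.8% and 100% of committed and 98.5% and 96.5% of mature oligodendrocyte-like cells. Its detection therefore marks the lineage and does not set precursor cells apart within it. All 6 rule genes were found together in 494 and 593 members. Members just inside the limit, with exactly 3 of the 6 genes, numbered 29 and 35 and had Olig1 at 2325 and 2356 CPM. Cells just outside it, with exactly 2, numbered 21 and 29 and had Olig1 at 444 and 528 CPM, beside a summed 1510 and 431 CPM of 4 fibroblast genes (Dcn, Lum, Col1a1, Col1a2). The limit on Mog, Aqp4, Cldn5, Enpp6 and Bmp4 left out 163 and 124 cells that met the marker rule, of which 39 and 40 had exactly 2 UMIs of these genes, while 125 and 141 members had exactly 1.

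Immune and endothelial markers were low in members. Of 11 microglia and macrophage markers 5 and 3 had any UMI, with C1qb, C1qc, P2ry12, Cx3cr1 and Ctss at 0 in both libraries. Of 8 T cell markers 1 in each library had a single UMI. Endothelial markers summed to 66.8 and 62.9 CPM, against 20901 and 23092 CPM in endothelial-like cells. Choroid plexus and ependymal markers summed to 1746 and 467 CPM, of which the 5 richest cells held 93.7% and 93.9%. Neuroblast markers summed to 311 and 350 CPM, where 5 cells held 94.5% of the 55 UMIs of Igfbpl1 in Foxp3-DTR+ members. Markers of neighbouring and other neural cells were found in many members. Astrocyte markers summed to 1469 and 1560 CPM, against 23105 and 25317 CPM in astrocyte-like cells. At least 3 UMIs of them were in 86.0% and 82.6% of members. Committed oligodendrocyte markers summed to 1024 and 995 CPM, against 4693 and 3501 CPM in committed oligodendrocyte-like cells, and 74.2% and 67.6% of members had at least 3 of these UMIs. Neuron markers summed to 603 and 558 CPM, and 50.7% and 39.5% of members had at least 3 UMIs of them. Mature oligodendrocyte markers summed to 473 and 458 CPM, against 51701 and 47946 CPM in their own class. Haemoglobin UMIs numbered 16924 in Foxp3-DTR- members, 16843 of them in 1 cell, and 201 in Foxp3-DTR+ members. Thy1, used in the sort, had 58 and 41 UMIs.

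Promoters are shown for 4 genes of the immediate early and type I interferon lists described below, chosen after their values and their motif matches were seen. The promoters of the immediate early genes Btg2 and Dusp1 are shown because both genes were lower in Foxp3-DTR+ members and both windows hold the cyclic AMP response element TGACGTCA. Those of the interferon-induced genes Ifit3 and Bst2 are shown because both were higher there and both windows hold 2 matches to the core GAAANNGAAA of the interferon-stimulated response element. Each run is the 250 bases before the annotated gene start, 5' to 3' on the gene's strand, from RefSeq on GRCm38.p6. Capitals mark the motif, and positions count back from -1, the base before the start.
Btg2, chr1:134079156-134079405, minus strand: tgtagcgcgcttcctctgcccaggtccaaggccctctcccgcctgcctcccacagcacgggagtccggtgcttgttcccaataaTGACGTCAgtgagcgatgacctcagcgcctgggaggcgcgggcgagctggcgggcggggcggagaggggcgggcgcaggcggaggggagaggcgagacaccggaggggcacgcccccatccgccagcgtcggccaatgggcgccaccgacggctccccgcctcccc
Dusp1, chr17:26508473-26508722, minus strand: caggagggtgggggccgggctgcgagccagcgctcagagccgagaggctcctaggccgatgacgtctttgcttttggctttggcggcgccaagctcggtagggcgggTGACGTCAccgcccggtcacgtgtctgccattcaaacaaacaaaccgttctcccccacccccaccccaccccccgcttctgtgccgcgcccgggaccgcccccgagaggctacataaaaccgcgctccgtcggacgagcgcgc
Ifit3, chr19:34583279-34583528, plus strand: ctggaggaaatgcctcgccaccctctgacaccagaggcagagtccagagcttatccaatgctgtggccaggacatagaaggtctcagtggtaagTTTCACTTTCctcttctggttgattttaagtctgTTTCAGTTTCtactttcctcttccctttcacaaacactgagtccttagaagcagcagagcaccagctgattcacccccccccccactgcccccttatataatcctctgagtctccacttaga
Bst2, chr8:71537473-71537722, minus strand: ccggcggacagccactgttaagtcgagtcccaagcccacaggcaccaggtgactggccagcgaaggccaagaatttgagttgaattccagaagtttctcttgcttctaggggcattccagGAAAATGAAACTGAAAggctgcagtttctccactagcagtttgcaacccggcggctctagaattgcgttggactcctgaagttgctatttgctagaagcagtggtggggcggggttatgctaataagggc
The element begins at -166 in Btg2 and at -143 in Dusp1. The end of the Btg2 window, past the annotated start, was not found in a transcript of the gene in GENCODE, another annotation. For the other 3 genes it was found, so the start and the motif position are less certain for Btg2. The interferon core, read on either strand, begins at -156 and -122 in Ifit3 and at -130 and -124 in Bst2, where the 2 matches overlap. Both strands of windows of 300 bases, from 250 before to 50 after the start, were searched in 32851 windows of the table. TGACGTCA was in 1.79% of all windows and in 3 of 30 immediate early genes with a window (Dusp1, Btg2 and Maff). The serum response element cores CCATATTA and CCATATAT were in 0.323% and 0.514% of all windows and in 1 immediate early gene each, Sgk1 and Egr2. GAAANNGAAA, a motif added after the values were seen, was in 3.44% of all windows and in 13 of 21 type I interferon response genes with a window. A match is a description of the letters in the window and shows no binding.

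Precursor cells made up a larger share of the Foxp3-DTR+ library. They were 716 of 7105 cells (10.1%, 9.39% to 10.8%) in the Foxp3-DTR- library and 931 of 5849 (15.9%, 14.99% to 16.9%) in the Foxp3-DTR+ library, a log2 ratio of 0.66 (0.52 to 0.80). The ratio was 0.69 (0.55 to 0.84) when every cell was first thinned to 2000 UMIs, and 0.55 (0.41 to 0.70) with the mature oligodendrocyte-like cells taken out of the denominator. A share can move because another class moves, and more precursor cells cannot be told apart from fewer other cells, or from a different yield of the sort, in these 2 libraries.

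The later stages of the lineage had no larger share in the Foxp3-DTR+ library. Classes were set by marker rules and are called by their markers. Committed oligodendrocyte-like cells, defined by Enpp6 and Bmp4, numbered 89 and 52 (1.25% and 0.889%), a log2 ratio of -0.49 (-1.02 to 0.01). Mature oligodendrocyte-like cells, which had Mog and other myelin genes, were 41.3% and 36.9% of cells (log2 ratio -0.16, -0.24 to -0.08). Astrocyte-like cells were 11.8% and 15.7% (0.42, 0.28 to 0.55), and endothelial-like cells 7.07% and 6.31% (-0.16, -0.36 to 0.03). The interval of the precursor ratio and that of the astrocyte-like ratio overlapped, which does not show that the ratios were alike. The difference between them was not tested.

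**Figure D1:**
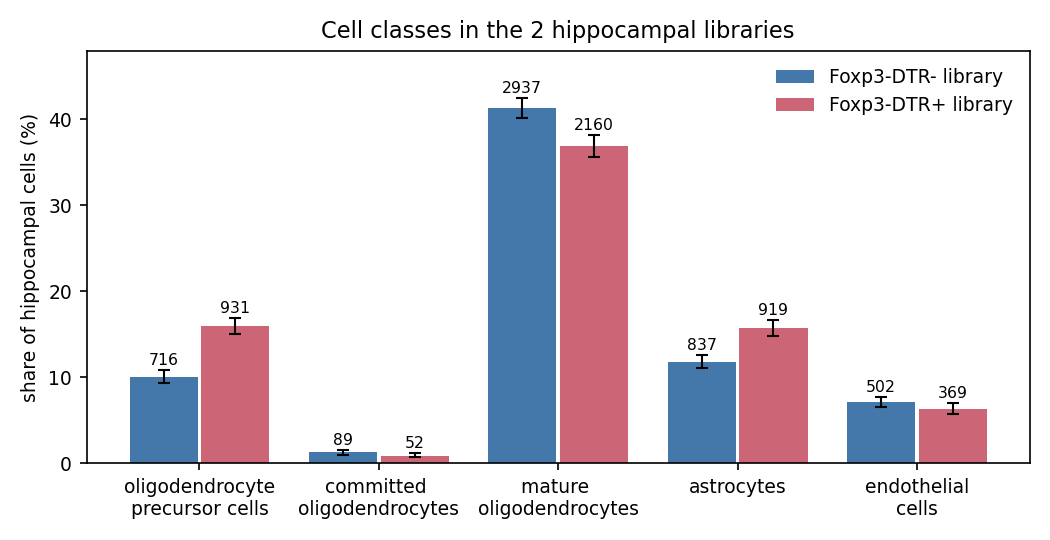
Share of hippocampal cells (percent) in 5 classes set by marker rules, for the Foxp3-DTR- and Foxp3-DTR+ libraries, with 1 library a bar, 95% exact intervals for counting error and the number of cells above each bar. Precursor cells stood at 10.1% and 15.9%, and mature oligodendrocytes at 41.3% and 36.9%.

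The genes that set the precursor cells apart from the other classes had similar levels in both libraries. The 6 rule genes, which chose the cells, are given as a description. Pdgfra stood at 1220 and 1176 CPM in members, at 312 and 578 CPM in committed oligodendrocyte-like cells, and at under 3 CPM in the other classes of both libraries, whose rule allowed at most 1 UMI of Pdgfra, Cspg4, C1ql1 and Lhfpl3 in all. C1ql1, a secreted synaptic organiser, stood at 1635 and 1785 CPM, and Lhfpl3 at 1683 and 1563 CPM. Cspg4 stood at 477 and 523 CPM, the proteoglycan gene Vcan at 775 and 789 CPM, and Cacng4, which encodes an auxiliary subunit of AMPA receptors, at 722 and 730 CPM. The sum of the 6 genes was 6513 and 6565 CPM, a log2 ratio of 0.01 (-0.01 to 0.04).

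Among 2077 genes at a mean of 100 CPM or more in members, 16 outside the marker rule were at least 2 times their highest level in any of the other 4 classes in both libraries. Mmp15, a membrane-bound metalloproteinase, stood at 120 and 149 CPM against 25.8 and 36.6 CPM in the next highest class. Trnp1 stood at 102 and 113 CPM against 18.4 and 40.2 CPM in committed oligodendrocyte-like cells, and Megf11 at 131 and 124 CPM against 41.7 and 29.3 CPM. Pcp4, a calmodulin-binding peptide, stood at 338 and 348 CPM, and the potassium channel interacting protein gene Kcnip3 at 335 and 370 CPM against 100 and 143 CPM. Cdo1, the cysteine dioxygenase gene, stood at 438 and 410 CPM and the cell adhesion gene Chl1 at 192 and 220 CPM. The others of the 15 with the highest ratios, which alone are named, were Inka2, Sapcd2, Tmem179, Caly, Chst11, Plppr1, Marchf1 and Rlbp1, at 97.3 to 594 CPM in the Foxp3-DTR- library. The class with the second highest level was the committed oligodendrocyte-like cells for each of these 15 genes, except Mmp15 in the Foxp3-DTR- library.

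Some surface and matrix genes of the precursor cells were also found in astrocytes, and the transcription factors Olig1 and Sox10 in the whole lineage. Of the 24 listed surface and matrix genes, 2 (Megf11 and Rlbp1) were at least 2 times their level in any other class in both libraries. In astrocyte-like cells Megf11 stood at 0.865 and 0.626 CPM and Rlbp1 at 49.0 and 38.8 CPM. Ptprz1, a receptor phosphatase that binds the matrix, stood at 4753 and 5141 CPM in members and at 2214 and 2282 CPM in astrocyte-like cells. Bcan, the brevican gene, was lower in members (838 and 899 CPM) than in astrocyte-like cells (1070 and 1166 CPM). Olig1 went from 2758 and 2631 CPM in members through 1716 and 1877 CPM in committed to 981 and 944 CPM in mature oligodendrocyte-like cells. Sox10, which drives the oligodendrocyte programme, differed less along the lineage, at 402 and 466 CPM in members, 359 and 512 CPM in committed and 355 and 380 CPM in mature cells.

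Genes of the onset of differentiation were already present. Gpr17, a receptor of cells about to differentiate, stood at 290 and 303 CPM in members and at 724 and 633 CPM in committed oligodendrocyte-like cells. Bcas1 stood at 230 and 209 CPM against 1450 and 1105 CPM, and Neu4 at 379 and 382 CPM against 507 and 538 CPM.

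**Figure D2:**
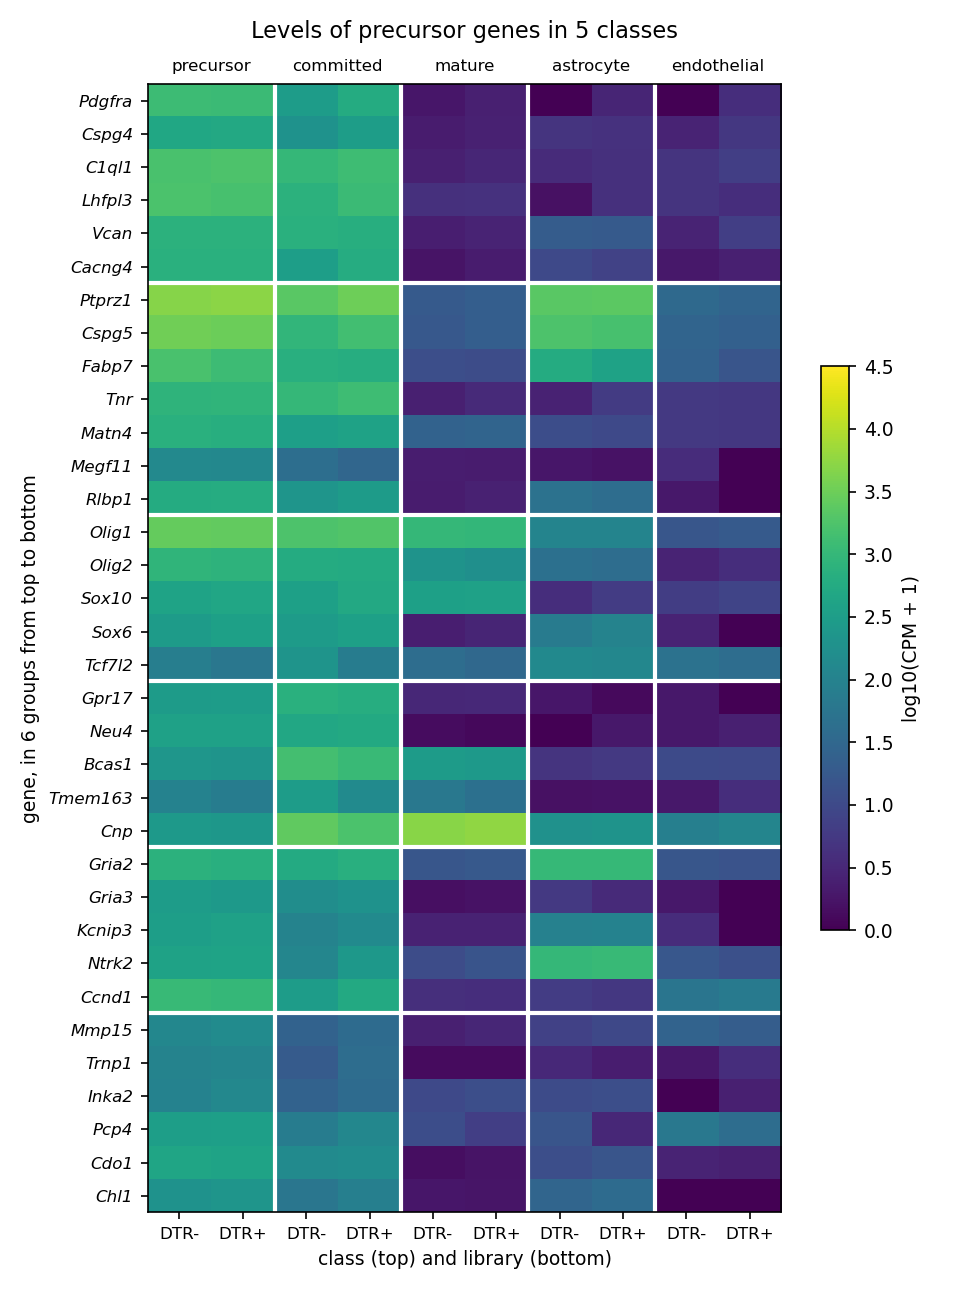
Level of genes, as log10(CPM + 1) of UMIs summed over cells, in 5 marker-defined classes (columns, each with the DTR- and DTR+ library). White lines separate, from top to bottom, the rule markers, surface and matrix genes, transcription factors, differentiation onset genes, channel and receptor genes, and genes named by the level rule. Pdgfra was bright in the 2 precursor columns (1220 and 1176 CPM) and weaker in the committed columns.

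For the comparison of Foxp3-DTR+ with Foxp3-DTR- members, UMIs were summed over the members of a library and given as CPM. The 10885 genes with at least 50 UMIs over both libraries were compared, and their median log2 ratio was 0.04. Because this limit is on the sum, a gene with few UMIs in 1 library could be compared through its UMIs in the other. Of these, 218 (2%) were higher in the Foxp3-DTR+ members by at least 1.5-fold with an interval excluding 0, and 238 (2.19%) were lower. At 2-fold the counts were 40 (0.367%) and 52 (0.478%). Counting any gene whose interval excluded 0, whatever its size, 12.4% were higher and 8.28% lower.

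Many of the genes with the largest ratios had ratios of the same size in the other classes. Among genes at a mean of 50 CPM or more, those named by a fixed rule as highest were mt-Atp6, Phpt1, Trappc10, Sec61a1, Fasn, Ifi27, Sstr1, Rps10, Bet1l, Trappc2l, Urm1 and Bckdha. Those named as lowest were Ttr, Sec61g, Klf2, Mir6236, Ubb, Polr2l, Erh, Hspa1a, Dpm1, Rpl35, Eno1 and Pex2. The mitochondrial ATP synthase gene mt-Atp6 stood at 69.8 and 138 CPM, a log2 ratio of 0.98 (0.77 to 1.20), beside ratios of 0.92 to 1.18 in the other 4 classes. The ubiquitin gene Ubb stood at 1583 and 785 CPM, a log2 ratio of -1.01 (-1.07 to -0.95), beside -1.11 to -1.23 in the other classes. Sec61g, a subunit of the translocon, stood at 90.8 and 33.5 CPM (-1.44, -1.73 to -1.15), beside -0.87 to -2.33. Erh, Rpl35 and Eno1 had log2 ratios of -0.98, -0.89 and -0.88 in members, and of -0.69 to -1.69 in the other classes. Sec61g, Erh, Rpl35, Rps10, Eno1 and Ubb have near-identical copies in the genome or repeat within themselves, so their counts are uncertain.

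Some other named genes had their larger ratios in members, and Ttr had most of its UMIs in few cells. Phpt1, a histidine phosphatase, stood at 163 and 262 CPM, a log2 ratio of 0.68 (0.53 to 0.83), against 0.26 to 0.47 in the other classes. Fasn, the fatty acid synthase gene, stood at 46.1 and 70.5 CPM (0.61, 0.34 to 0.89), and its thinned ratio was 0.24. Sstr1, a somatostatin receptor gene, was compared in members alone and stood at 43.1 and 65.6 CPM (0.61, 0.32 to 0.90), with a thinned ratio of 0.27. Ttr, a transcript of the choroid plexus, stood at 1717 and 457 CPM (-1.91, -1.98 to -1.84), in 41.1% and 11.2% of members, and 93.9% of its UMIs in Foxp3-DTR- members came from 5 cells. With the cells marked by Scrublet removed its log2 ratio was 0.48, and without the 5 richest cells of each library it was -2.03. Ttr was lower in every other class too, with log2 ratios from -1.66 in mature oligodendrocyte-like to -6.56 in endothelial-like cells.

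**Figure D3:**
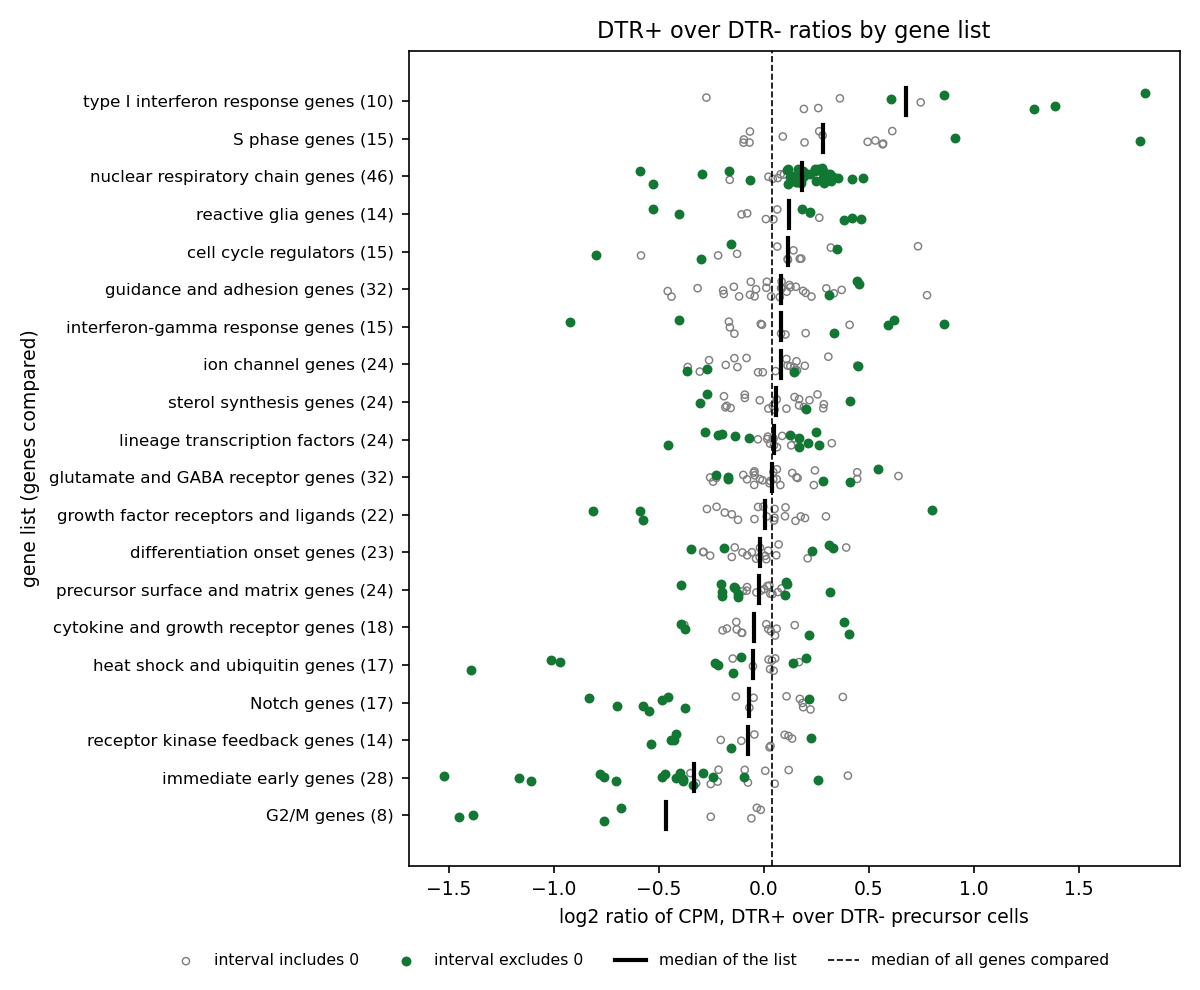
Log2 ratio of CPM, DTR+ over DTR- precursor cells, for each gene compared (points) in 20 gene lists, with the number of genes compared in parentheses. Filled points have a 95% counting interval that excludes 0, thick bars are list medians, and the dashed line is the median of all genes compared (0.04). The type I interferon list has the highest median (0.68) and the G2/M and immediate early lists the lowest (-0.47 and -0.33).

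Some type I interferon response genes were higher in Foxp3-DTR+ members. Of 30 type I interferon response genes 10 were compared, with a median log2 ratio of 0.68. The 5 whose interval excluded 0 were all higher by at least 1.5-fold, and none was lower, beside the 2% of all genes compared that passed the same limits in that direction. The median and the 5 rest partly on genes that reached the UMI limit through their Foxp3-DTR+ counts, named below. All UMIs of the list, with no such limit, summed to 348 and 544 CPM, a log2 ratio of 0.64 (0.54 to 0.74). Ifi27, a gene of the interferon-induced family of small mitochondrial proteins, made up most of this sum. It stood at 236 and 359 CPM (0.61, 0.49 to 0.73), in 58.8% and 64.6% of members, and in 35.3% and 47.8% of members thinned to 2000 UMIs. Its log2 ratio was 0.38 (0.17 to 0.59) in astrocyte-like, 0.20 in mature oligodendrocyte-like, 0.08 in endothelial-like and -0.02 in committed oligodendrocyte-like cells. The list had a median of 0.42 over 8 genes in mature oligodendrocyte-like cells, 0.16 over 10 in endothelial-like cells and 0.03 over 7 in astrocyte-like cells, and the difference between classes was not tested.

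Each of the other genes past 1.5-fold was found in few cells. Ifit3, an antiviral gene with a near-identical copy in Ifit3b that its reads can be divided with, had 25 and 72 UMIs (6.74 and 17.6 CPM, log2 ratio 1.39, 0.71 to 2.11) in 21 and 54 members. Ifitm3, a membrane protein that blocks virus entry, had 16 and 62 UMIs (1.82, 1.004 to 2.71) in 7 and 24 members, and 5 cells held 87.5% and 64.5% of them. Rtp4 had 16 and 43 UMIs (1.29, 0.43 to 2.21) and Eif2ak2, the double-stranded RNA kinase gene, 21 and 42 (0.86, 0.07 to 1.69). Ifitm3, Rtp4 and Eif2ak2 reached the limit of 50 UMIs over both libraries through their Foxp3-DTR+ counts. With their Foxp3-DTR- counts in both libraries they would not have been compared. Bst2, the tetherin gene, was under the limit of 50 UMIs and is named after its values were seen. It had 1 UMI in the Foxp3-DTR- members and 46 in 12 of the Foxp3-DTR+ members, a log2 ratio of 5.38 (2.83 to 10.72), and 5 cells held 80.4% of the 46. Without Ifi27 the list had 419 and 759 UMIs (0.72, 0.54 to 0.89), of which 5 cells held 10.3% and 22.1%. At least 1 of these UMIs was in 258 of 716 members (36.0%) and 377 of 931 (40.5%), a log2 ratio of 0.17 (-0.06 to 0.40). At least 3 were in 25 (3.49%) and 53 (5.69%) members (0.71, -0.01 to 1.45), and at least 5 in 9 (1.26%) and 13 (1.40%) members (0.15, -1.19 to 1.56). None of the 3 full-depth intervals excluded 0, though the one for at least 3 UMIs only just included it. After thinning, at least 1 was in 18.3% and 22.1% of members (0.28, -0.06 to 0.62), and at least 3 in 2 of 663 (0.302%) and 14 of 864 (1.62%) members (2.43, 0.30 to 5.61). These counts by cell were added after the values were seen.

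Interferon-gamma response genes had no common direction. Of 38 genes 15 were compared, with a median of 0.08 and a summed level of 719 CPM in both libraries. There were 4 intervals above 0 and 2 below, beside 12.4% and 8.28% of all genes compared. Of the 15, 3 were past 1.5-fold higher and 1 lower, beside 2% and 2.19% of all genes. The 3 were Psmb8 (5.39 and 9.79 CPM), Irgm1 (9.70 and 14.9 CPM) and Tapbp (14.3 and 21.5 CPM), and the lower one was Tap2 (16.7 and 8.81 CPM). Psmb8 reached the UMI limit for comparison through its Foxp3-DTR+ count. The class I heavy chain gene H2-D1 stood at 143 and 108 CPM (-0.40, -0.59 to -0.22), and B2m, its light chain, at 110.2 and 109.6 CPM (-0.01, -0.20 to 0.19). Of 18 cytokine and growth receptor genes compared, 3 intervals lay above 0 and 2 below, beside the same shares of all genes. Their median was -0.04 and none was past 1.5-fold. Among them Ifnar1, a type I interferon receptor chain, stood at 32.9 and 43.6 CPM (0.41, 0.07 to 0.75). Jak1, a kinase of interferon signalling, stood at 70.3 and 91.8 CPM (0.38, 0.15 to 0.62). Ifngr2, a chain of the interferon-gamma receptor, stood at 35.6 and 27.4 CPM. Ifnar1 and Ifngr2 are named after their values were seen.

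Immediate early genes were lower in Foxp3-DTR+ members. These genes are induced within minutes by growth factors, activity or the dissociation of tissue. Of 35 listed, 28 were compared, with a median log2 ratio of -0.33, and 16 intervals lay below 0 and 1 above, beside 8.28% and 12.4% of all genes compared. Of the 28, 6 were lower by at least 1.5-fold and none was higher, beside the 2.19% and 2% of all genes. Cebpb, among the 6, reached the UMI limit for comparison through its Foxp3-DTR- count. The list summed to 6471 and 5453 CPM, a log2 ratio of -0.25 (-0.27 to -0.22). In members thinned to 2000 UMIs the median cell had 8 UMIs of the list in the Foxp3-DTR- library and 6 in the Foxp3-DTR+ library, and the tenth of cells richest in them began at 30 and 26 UMIs.

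The factors that pair into AP-1 were lower by different amounts. Fos stood at 1077 and 882 CPM (-0.29, -0.35 to -0.22), in 61.7% and 53.5% of members. Jund stood at 1504 and 1191 CPM (-0.34, -0.39 to -0.28) and Jun at 1592 and 1491 CPM (-0.09, -0.15 to -0.04). Fosb went the other way, at 228 and 273 CPM (0.26, 0.13 to 0.39). The larger ratios were in Klf2, a zinc finger factor, at 81.6 and 36.5 CPM (-1.16, -1.46 to -0.88), in Btg2, an antiproliferative gene, at 47.4 and 22.02 CPM (-1.11, -1.49 to -0.73), and in Klf4, at 77.3 and 47.5 CPM (-0.70, -0.97 to -0.44). Ier5 stood at 58.7 and 34.3 CPM, the nuclear receptor gene Nr4a1 at 46.9 and 27.7 CPM, and Cebpb at 12.7 and 4.40 CPM (-1.52, -2.40 to -0.71). Dusp1, the phosphatase gene whose promoter is shown, chosen after its values were seen, stood at 72.8 and 52.6 CPM (-0.47, -0.73 to -0.20).

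For the same list the median in committed oligodendrocyte-like cells was close to that of members, over fewer genes, and the medians of the other classes were nearer 0. The median was -0.06 over 26 genes in mature oligodendrocyte-like, -0.04 over 20 in astrocyte-like, -0.11 over 25 in endothelial-like and -0.32 over 13 in committed oligodendrocyte-like cells. In mature oligodendrocyte-like cells Egr1 had a log2 ratio of 0.29 (0.22 to 0.36), against -0.24 (-0.35 to -0.13) in members. Klf2 had 4.81 and 5.38 CPM there (0.16, -0.26 to 0.57), and in endothelial-like cells, where it stood at 4018 and 2910 CPM, its log2 ratio was -0.47 (-0.54 to -0.39). Both libraries were dissociated and sorted, and the part of handling in the difference was not tested.

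**Figure D4:**
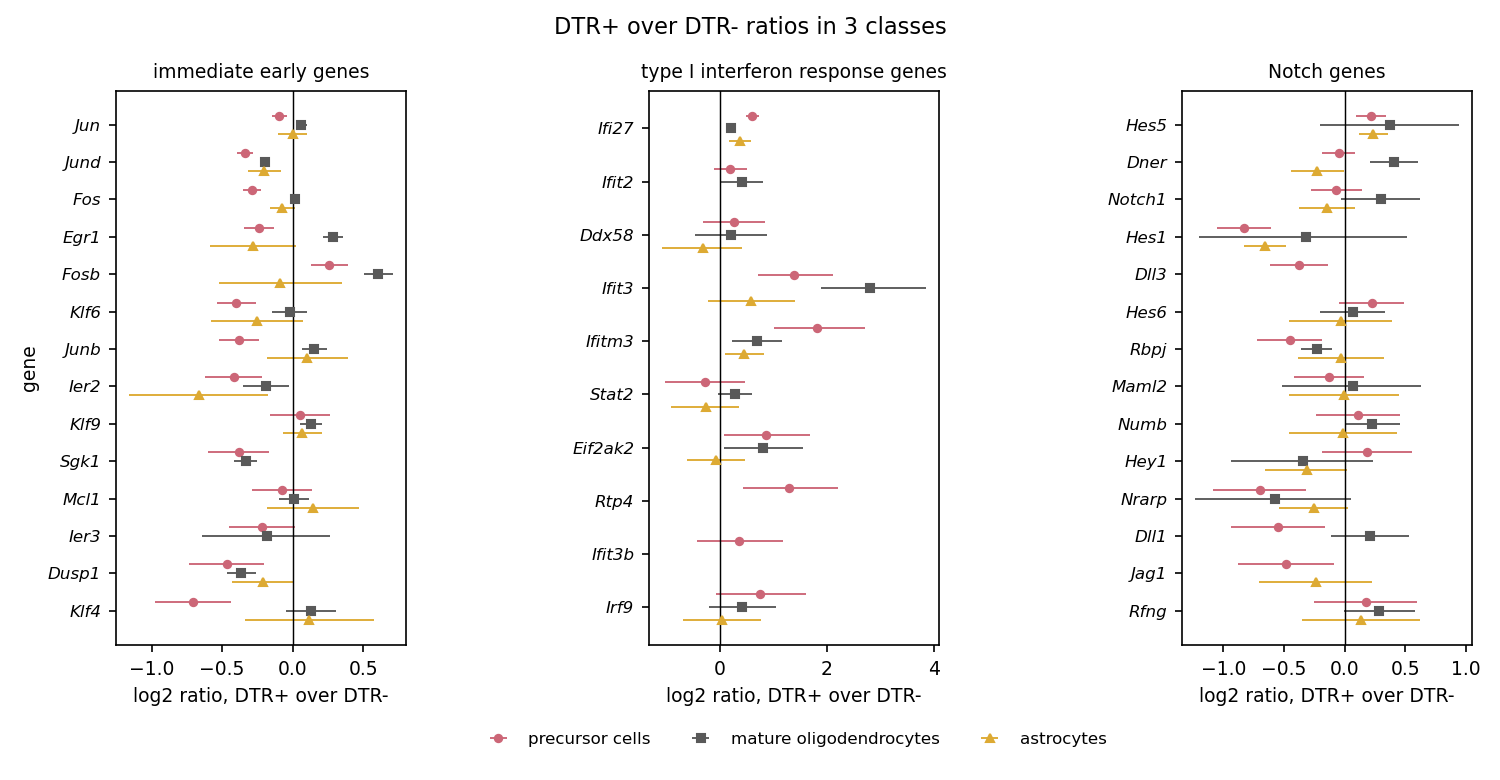
Log2 ratio of CPM, DTR+ over DTR-, with 95% counting intervals, in precursor cells (circles), mature oligodendrocytes (squares) and astrocytes (triangles), for up to 14 genes with the most UMIs of 3 lists. Genes without a marker had too few UMIs in that class. Egr1 lay at -0.24 in precursor cells and 0.29 in mature oligodendrocytes, and Ifi27 at 0.61 and 0.20.

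Heat shock and ubiquitin genes were split. Of 17 compared, the median was -0.05, with 2 intervals above 0 and 7 below, beside 12.4% and 8.28% of all genes compared. The inducible chaperone genes Hspa1a (92.4 and 47.2 CPM, -0.97, -1.23 to -0.71) and Hspa1b (30.2 and 11.5 CPM) were lower, though the pair is nearly identical in sequence and their reads can be divided between them. Hsp90ab1, a constitutive chaperone gene, stood at 2438 and 2690 CPM (0.14, 0.10 to 0.18). Hspa1a was lower in the 4 other classes too, with log2 ratios of -4.56 in committed oligodendrocyte-like, -1.90 in astrocyte-like, -0.50 in mature oligodendrocyte-like and -0.37 in endothelial-like cells.

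Notch and growth factor feedback genes held a lower group each. Of 17 Notch genes compared, 7 intervals lay below 0 and 1 above, beside 8.28% and 12.4% of all genes, with a median of -0.07. Hes1, a repressor induced by Notch, stood at 120 and 67.3 CPM (-0.83, -1.05 to -0.61), and Nrarp, a Notch target that limits the pathway, at 39.3 and 24.2 CPM (-0.70, -1.08 to -0.32). The ligand gene Dll3 stood at 83.8 and 64.6 CPM (-0.38, -0.62 to -0.13), but had a ratio of 0.03 in thinned cells. The receptor gene Notch1 stood at 101 and 96.4 CPM (-0.07, -0.28 to 0.14). Hes5, the other main Notch target, was higher at 250.1 and 290.7 CPM (0.22, 0.09 to 0.34). Hes1 was also lower in astrocyte-like (-0.66, -0.83 to -0.49) and endothelial-like cells (-0.86, -1.06 to -0.66).

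Of 14 feedback genes of receptor kinases compared, 5 intervals lay below 0 and 1 above, beside the same 8.28% and 12.4% of all genes, with a median of -0.07. Ccnd1, the cyclin D1 gene, stood at 1089 and 979 CPM (-0.15, -0.22 to -0.09), and Phlda1 at 322 and 237 CPM (-0.44, -0.57 to -0.32). The kinase inhibitors Spry1 (117 and 81.0 CPM, -0.54, -0.75 to -0.33) and Spry4 (120 and 89.8 CPM, -0.42, -0.62 to -0.21) and the phosphatase gene Dusp6 (62.8 and 46.7 CPM, -0.43, -0.71 to -0.14), named after their values were seen, made up the other 3. Etv5, a factor induced by fibroblast growth factor, was higher at 96.2 and 112 CPM (0.22, 0.02 to 0.43). Of 22 growth factor receptors and ligands compared, Fgfr3 (9.97 and 17.4 CPM) was higher by over 1.5-fold and Igfbp3 (41.2 and 23.5 CPM) and the BMP target Id3 (61.4 and 40.9 CPM) were lower, beside 2% and 2.19% of all genes. The neurotrophin receptor genes Ntrk2 (389 and 403 CPM) and Ntrk3 (142 and 140 CPM) had intervals that included 0.

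The identity genes differed by small amounts. Of 24 surface and matrix genes compared, 4 intervals lay above 0 and 8 below, beside 12.4% and 8.28% of all genes, and none reached 1.5-fold, with a median of -0.02. The largest difference was in Fabp7, the brain fatty acid binding protein gene, at 1591 and 1212 CPM (-0.39, -0.45 to -0.34). Ptprz1 was higher by a log2 ratio of 0.11 (0.08 to 0.14) and Cspg5 lower by one of -0.14 (-0.17 to -0.10). Among 24 lineage transcription factors 6 intervals lay above 0 and 6 below, with a median of 0.05. Sox10 stood at 402 and 466 CPM (0.21, 0.11 to 0.31), Olig2 at 889 and 809 CPM (-0.14, -0.21 to -0.07), and Tcf4 at 1054 and 918 CPM (-0.20, -0.26 to -0.13). Sox6, which holds precursors back from differentiating, stood at 299 and 356 CPM (0.25, 0.14 to 0.36), and Tcf7l2, a factor of differentiating cells, at 82.2 and 60.0 CPM (-0.45, -0.70 to -0.21), both named after their values were seen.

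Genes of differentiation showed no common direction. Of 23 compared, 3 intervals lay above 0 and 2 below, beside 12.4% and 8.28% of all genes, with a median of -0.02 and none past 1.5-fold. Marcks, Sirt2, Neu4, Gpr17 and Cnp, the 5 with the most UMIs, all had intervals that included 0, with log2 ratios from -0.08 to 0.06. Itpr2 (226 and 266 CPM), Ugt8a (137 and 172 CPM) and Tubb4a (109 and 135 CPM) were higher, and Tmem163 (98.4 and 77.3 CPM) was lower. These 4 are named after their values were seen.

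Synaptic receptor and channel genes had medians of 0.04 over 32 genes and 0.08 over 24. The AMPA receptor genes Gria2 (771 and 686 CPM, -0.17, -0.24 to -0.09) and Gria3 (302 and 259 CPM, -0.23, -0.35 to -0.10) were lower, and Grm5, a metabotropic receptor gene, stood at 212 and 209 CPM (-0.02, -0.16 to 0.12). The kainate receptor gene Grik4 (35.8 and 52.4 CPM, 0.55, 0.23 to 0.87) and the calcium channel gene Cacna1d (86.5 and 118 CPM, 0.45, 0.24 to 0.66) were higher, and Grik4 is named after its values were seen.

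Cell cycle regulators, guidance genes and sterol genes were read against the 12.4% above and 8.28% below of all genes, and the shares in the guidance and sterol lists were near or under these. Of 15 cell cycle regulators compared, Ccnd2, the cyclin D2 gene, was higher at 83.3 and 106 CPM (0.35, 0.14 to 0.57), and 3 were lower. These were Ccnd1, the inhibitor gene Cdkn1c (67.9 and 55.3 CPM, named after its values were seen) and Mycn, a growth regulator (13.2 and 7.59 CPM, -0.80, -1.50 to -0.12). Of 32 guidance and adhesion genes compared none was lower, and 3 had intervals above 0, the semaphorin gene Sema5b and the plexin genes Plxnb3 and Plxna2, named after their values were seen. The neural adhesion gene Ncam1 stood at 566 and 541 CPM (-0.06, -0.15 to 0.02). Of 24 sterol synthesis genes compared, 2 intervals lay above 0 and 2 below. Pmvk, a kinase of the mevalonate pathway, was higher (63.6 and 84.7 CPM, 0.41, 0.17 to 0.66), and Insig1 and Fdps, named after their values were seen, were lower.

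Nuclear genes of the respiratory chain were higher by small amounts. All 46 listed genes were compared, with a median of 0.18, 34 intervals above 0 and 5 below, beside 12.4% and 8.28% of all genes. Their sum was 20455 and 22895 CPM, a log2 ratio of 0.16 (0.15 to 0.18). Cox4i1, a cytochrome oxidase subunit gene, stood at 981 and 1225 CPM (0.32, 0.26 to 0.38), and Sdhd, the only one past 1.5-fold, at 57.4 and 38.2 CPM (-0.59, -0.90 to -0.28). The median of the list was 0.13 in mature oligodendrocyte-like and 0.08 in astrocyte-like cells.

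Of 14 reactive glia genes compared, 5 intervals lay above 0 and 2 below, beside 12.4% and 8.28% of all genes. Apoe, the apolipoprotein gene, stood at 3700 and 4828 CPM (0.38, 0.35 to 0.42), and the metallothionein genes Mt3 at 797 and 904 CPM (0.18, 0.11 to 0.25) and Mt1 at 315 and 421 CPM (0.42, 0.31 to 0.53). The tetraspanin gene Cd9 was lower, at 1343 and 933 CPM (-0.53, -0.59 to -0.46). Apoe and Cd9 had log2 ratios of 0.24 and -0.65 in astrocyte-like cells, where Apoe stood at 25864 and 30519 CPM. Mt1 is named after its values were seen.

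Few members had UMIs of G2/M genes. Members with at least 2 UMIs over a list of 18 G2/M genes numbered 30 of 716 (4.19%, 2.84% to 5.93%) and 25 of 931 (2.69%, 1.75% to 3.94%), a log2 ratio of -0.64 (-1.47 to 0.17), so a difference was not detectable at this depth. In members thinned to 2000 UMIs the shares were 2.41% and 2.20%. The same count in mature oligodendrocyte-like cells, which do not divide, was 1.67% and 1.53% at full depth and 0.208% and 0.194% after thinning, with median depths of 7252 and 5865 UMIs. All 8 G2/M genes compared had ratios below 0, with a median of -0.47. Of the 8, 4 intervals lay below 0 and 4 genes were lower by at least 1.5-fold, beside 8.28% and 2.19% of all genes compared. Cenpf, a kinetochore gene, had 147 and 62 UMIs (-1.38, -1.84 to -0.95) and Top2a, the topoisomerase of dividing cells, 91 and 98 (-0.03, -0.46 to 0.40). The 5 richest cells held 46.2% to 82.8% of the UMIs of each of these genes in the 2 libraries.

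S phase genes leaned the other way at full depth and not after thinning. Of 15 compared, the median was 0.28, with Mcm5 (29 and 60 UMIs) and Clspn (11 and 42 UMIs) past 1.5-fold, and the thinned median was -0.12. Clspn reached the UMI limit for comparison through its Foxp3-DTR+ count. Members with at least 2 S phase UMIs were 43.4% and 32.5% at full depth and 17.8% and 15.5% after thinning. Mature oligodendrocyte-like cells had such UMIs in 40.4% and 32.1% at full depth and 5.69% and 4.96% after thinning, so that at equal depth the share was higher in members.

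Members with G2/M UMIs differed from the rest in both libraries. Among thinned members 16 and 19 had at least 2 G2/M UMIs, and of 3170 genes compared 44 were higher by at least 1.5-fold with an interval excluding 0 in both libraries and 23 were lower. The chromatin gene Hmgb2 stood at 1906 and 947 CPM in these cells against 57.2 and 66.9 CPM in the other members, the tubulin regulator Stmn1 at 1688 and 1500 CPM against 120 and 157 CPM, and the histone variant gene H2az1 at 4375 and 4026 CPM against 498 and 528 CPM. Among genes lower in these cells, Bcan stood at 156 and 579 CPM against 893 and 925 CPM, and Apoe at 1750.0 and 2947 CPM against 3908 and 5145 CPM.

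The share of members with Gpr17 differed by less than the counting error. It was 463 of 716 (64.7%, 61.0% to 68.2%) and 587 of 931 (63.1%, 59.9% to 66.2%), a log2 ratio of -0.04 (-0.21 to 0.14). After thinning it was 38.2% and 40.3%. Members with at least 3 Gpr17 UMIs were 21.8% and 17.0%, a log2 ratio of -0.36 (-0.69 to -0.03) at full depth, where Foxp3-DTR- members were the deeper. Gpr17 was found in 1.74% and 1.57% of mature oligodendrocyte-like cells and 0.358% and 0.109% of astrocyte-like cells. Thinned members with and without a Gpr17 UMI were also set side by side, though thinning removed Gpr17 from many cells that had it at full depth, so the split mixes the groups and cannot show that they are alike. Of 3170 genes, Gpr17 itself was the only one higher in both libraries by the limits above and Ttr the only one lower. Bcas1 stood at 304 and 249 CPM with Gpr17 and 212 and 183 CPM without it, and Sox8 at 176 and 203 CPM against 120 and 151 CPM.

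**Figure D5:**
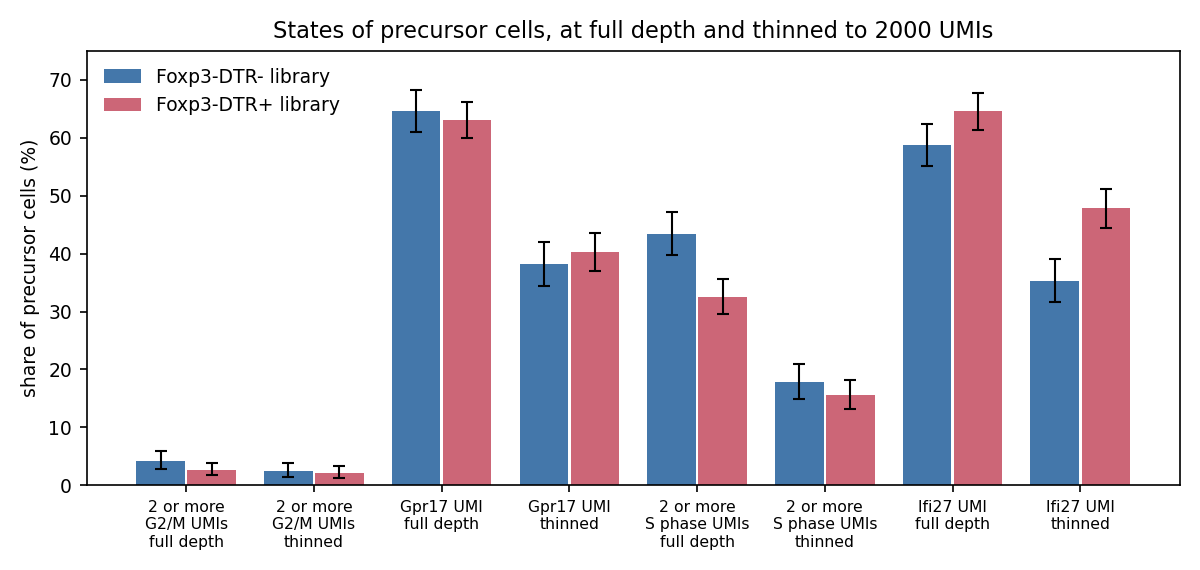
Share of precursor cells (percent) with at least 2 G2/M UMIs, a Gpr17 UMI, at least 2 S phase UMIs or an Ifi27 UMI, at full depth and in cells thinned to 2000 UMIs, for 1 library a bar with 95% exact intervals for counting error. The Ifi27 share was 35.3% and 47.8% after thinning, and the Gpr17 share 38.2% and 40.3%.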

How the data were processed

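Single-cell 3' gene expression was measured in 2 hippocampal libraries, 1 a group, each from 2 pooled mice. The values are the UMI counts the authors deposited, whole numbers with no scaling, for each gene in each barcode. Cell Ranger 6.1.0, Seurat and mm10 are named in the submitters' processing notes. The libraries differ in depth, which limits shares of cells with a UMI. The other 6 samples were not used here. Counts of 55487 gene IDs were summed over shared symbols to 55367 symbols. Members were found by the marker rule in the report. Committed oligodendrocyte-like cells had at least 2 UMIs of Enpp6 and Bmp4 and at least 2 of Olig1, Olig2 and Sox10, and the other classes at least 3 markers of their own, with at most 1 UMI of the markers of others. Promoter windows came from RefSeq on GRCm38.p6. UMIs were summed over members and scaled to CPM. Log2 ratios have exact conditional binomial intervals and shares exact Clopper-Pearson ones, both at 95% and for counting error only. For ratios of shares the intervals take cell totals like UMI totals, so they are wider than a comparison of binomial shares would give. No p-value was computed. Levels of different genes are CPM of 3' UMIs, which are not divided by length.

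Members and gene lists were chosen with earlier results of these data known. Named genes were the 12 highest and 12 lowest log2 ratios at a mean of 50 CPM or more with an interval excluding 0 and the same direction in thinned cells, with cells weighted equally and without the 5 richest cells, together with the 5 members of each list with the most UMIs and those past 1.5-fold. Xist, Y-linked and predicted genes were not named. For levels they were the 15 genes with the highest ratio to any other class. Thinning drew each cell down to 2000 UMIs and left out 53 and 67 members. The interferon motif, the counts of interferon genes by cell and 2 alternatives were chosen after seeing the data. The ratios and their intervals were tested on simulated UMI sums with counting error alone, which held no difference between cells. Python 3.11.15, numpy 2.4.6, scipy 1.17.1, pandas 2.3.3 and scanpy 1.11.5 (for Scrublet) were used. Alternatives were another gene minimum, marker limit, UMI filter, scaling, thinning, doublet removal and fold.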

Additional observations from a re-analysis of the deposited data

How the results depend on the processing

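No paired analysis was possible because each group was 1 library. The precursor share stayed within its main interval under all 8 alternatives, from 0.54 with no limit on the excluded genes to 0.72 with at least 1000 genes. The count of genes higher in Foxp3-DTR+ members, 218, was 32 with at least 200 UMIs a gene, 348 with no filter and 40 at 2-fold, and the count of lower genes, 238, was 77, 416 and 52. The other alternatives kept both within 1.5 times. The Gpr17 log2 ratio of -0.04 was -0.36 with at least 3 UMIs. The S phase median of 0.28 was -0.12 in thinned cells, and the interferon-gamma median of 0.08 was -0.081 with cells weighted equally and -0.028 in thinned cells. Ttr was 0.48 with Scrublet doublets removed and Dll3 was 0.029 in thinned cells. For these the cause was not tested. Of 1090 values of 109 named genes, these 2 alone took the opposite sign among genes whose main interval excluded 0. The type I interferon median ran from 0.56 with cells weighted equally to 0.96 in thinned cells, and the immediate early median from -0.37 to -0.29. Leaving out the 18 shared barcodes, or the 1 cell with 100 or more haemoglobin UMIs, both chosen after seeing the data, kept the direction of the list medians recomputed. Median-of-ratios scaling lowered every log2 ratio by 0.04.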
